A study of Mus musculus with 113 samples.

Results

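The comparison described here sets late SFEB cultures of mouse R1 embryonic stem cells (mESCs) against late adherent cultures of the same line, as measured by RNA-seq of cell populations. SFEB is a serum-free floating culture in which cells form embryoid body-like aggregates, in GKSR medium; in the adherent monoculture, cells grew on gelatin in N2B27 medium. In both protocols, cells were moved on day 6 (144 h) to dishes coated with PDL, laminin and fibronectin, the SFEB cells in GMEM-N2 medium, so the 216 h libraries are of replated cells. Whether the 144 h libraries were taken before or after that step is not given in the sources used here. No gene was altered, and both protocols started from the same cell line, passaged once without feeder cells.

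Late libraries were chosen by collection time. They were 4 SFEB libraries (126, 142, 144 and 216 h) and 4 adherent libraries (125.5, 140.5, 144 and 216 h), so 8 of the 113 samples of the series. The 126 and 142 h SFEB libraries belong to a first series and the 144 and 216 h libraries to a parallel one. As a baseline, 6 early SFEB libraries (0 to 9 h, with 0 h taken in both series) and 3 early adherent libraries (0, 2.5 and 8.5 h) were used. Each library is the only one of its time point in its series. The spread within a group is therefore a spread between collection times, which includes change over time, and the p-values measure only that spread.

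The deposited values are FPKM, that is, fragments scaled to transcript length and to the mapped reads of the library. The SFEB and adherent values were normalized separately, and the authors corrected the SFEB values for batch with ComBat, so levels of the 2 protocols set side by side below are across separately normalized values and were not tested against each other as the main result. For this reason the change from early to late was computed within each protocol on the log2(FPKM + 1) scale, and the quantity tested was the SFEB change minus the adherent change, called the protocol difference below. It is positive where late SFEB cells gained more, or lost less, than late adherent cells. The number behind it is a difference of changes, so it can come from the late levels, from the early levels or from both, and the levels are given for that reason. Genes called higher or lower in SFEB below are those with a protocol difference above or below 0, whatever their late levels.

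When mESCs are taken out of serum and other inducing signals, many of them become neuroectoderm, the sheet of epithelial progenitors that forms the brain and spinal cord. Along its length the neuroectoderm is patterned by transcription factors: *Lhx2*, *Otx1*, *Fezf1* and *Fezf2* mark the forebrain at its front, and *Hox* genes mark the hindbrain and spinal cord. Cells that take other routes can become endoderm, which in its extraembryonic forms is driven by *Gata4* and *Gata6* and lays down a basement membrane of type IV collagen and laminin. Both kinds of gene are taken first below.

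Of 13089 genes tested, 52 had a protocol difference above 0 at an adjusted p below 0.05 (0.397% of the genes) and 166 had one below 0 (1.27%), by limma with Benjamini-Hochberg adjustment. At an unadjusted p below 0.05 there were 2023. Of the 52, 5 were in the list of forebrain and eye field factors, among them *Fezf1*, *Otx1*, *Lhx2* and *Fezf2*, and of the 166, 11 were in the endoderm list, among them *Col4a1*, *Col4a2* and *Lamb1*. The largest differences were those of *Stra8* (2.74) and *Col4a1* (-3.95). These counts depended on single libraries. Without any 1 of the 17 libraries they ranged from 20 to 86 higher and from 43 to 295 lower, with the fewest without the adherent 2.5 h library (20 and 43) and the most without the SFEB 144 h library (86 and 295), while 29 and 70 were called without the SFEB 142 h library. Within the first SFEB series alone 112 genes were higher and 442 lower. In the parallel series alone, with 2 early and 2 late SFEB libraries, 1 gene was higher and 0 were lower, with 1184 genes at an unadjusted p below 0.05.

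In both protocols a large share of the genes changed from early to late. Within SFEB, 34.8% of the genes rose from early to late and 26.6% fell, and within adherent culture 33.5% rose and 20.8% fell. In the same direction, 3650 genes (27.9%) rose in both and 2290 (17.5%) fell in both, and 45 (0.344%) were called in opposite directions. The median protocol difference was -0.03. Of the 52 genes with a protocol difference above 0, 13 rose in SFEB with no call in adherent culture, 6 rose in SFEB and fell in adherent culture, 10 rose in both, 10 fell in adherent culture alone and 13 fell in both. Of the 166 lower genes, 58 fell in SFEB alone, 36 rose in adherent culture alone, 25 fell in SFEB and rose in adherent culture, 34 fell in both and 13 rose in both. In many of them the protocols differed more early than late: the early difference between protocols was larger than the late one for 35 of the 52 and for 101 of the 166. The late difference with no baseline taken off had the same sign for 42 of the 52 and 145 of the 166. It was called in the same direction for 19 of the 52 and 72 of the 166.

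**Figure D1:**
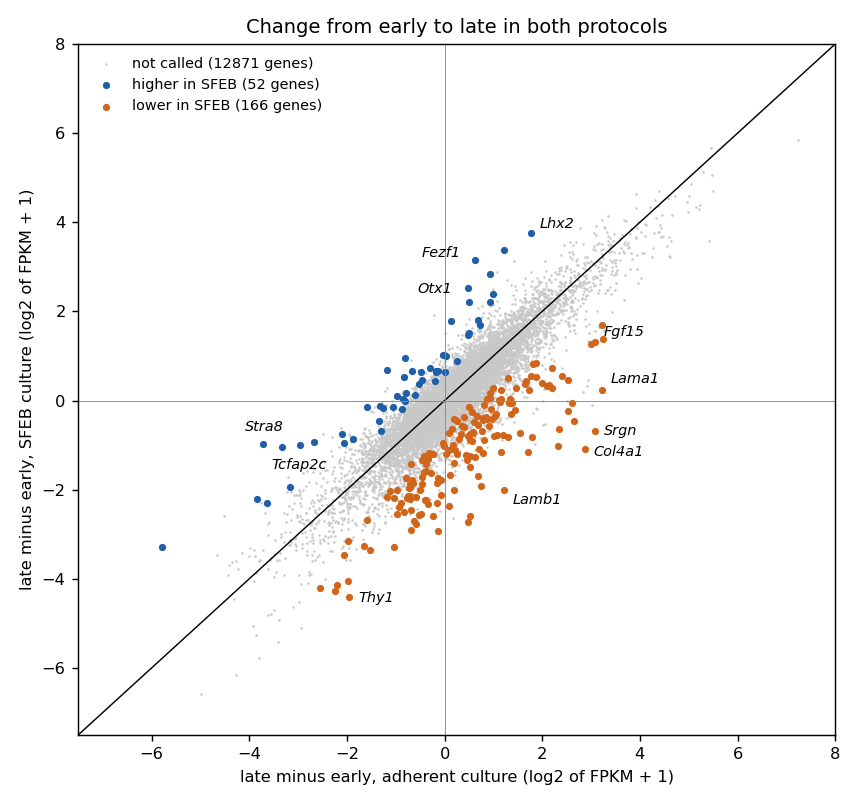
Change from early to late in adherent culture (x axis) and in SFEB culture (y axis), both as differences of mean log2(FPKM + 1), with 1 point for each of 13089 genes and the line of equal change. The 52 genes higher in SFEB lie above the line and the 166 lower genes below it; *Col4a1* and *Srgn* lie far to the lower right, and *Lhx2* and *Fezf1* above the line among genes that rose in both protocols.

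The forebrain and eye field list, of 37 genes, had 13 members tested. Of these, 5 were called higher in late SFEB and 0 lower, beside 0.397% of all genes, and the median protocol difference was 1.43 on the log2 scale, beside -0.03 over all genes. The called members were *Fezf1*, *Otx1*, *Lhx2*, *Fezf2* and *Dmrt3*. Of the rest, 12 were in neither table, and 12 were in a single table or below the filter of 1 FPKM in 3 libraries. Forebrain and eye genes were among the single-table genes on both sides, and these were not tested. *Six3* (0.115, 0.0673, 2.35 and 0.682 FPKM late) and *Vax2* (2.12, 1.97, 0.467 and 3.5 FPKM) were listed for adherent culture alone. *Emx2* (6.16, 11.6, 2.42 and 3.65 FPKM late) and *Nr2e1* (5.25, 6.95, 2.97 and 4.47 FPKM) were listed for SFEB alone. A member that passed the filter through the protocol where it was high had to differ, so these counts describe the tested members and not the list.

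*Fezf1*, a zinc finger repressor of the anterior neural plate, had the lowest p of the list. Its level in late SFEB was 13.3, 9.16, 5.02 and 9.27 FPKM at 126, 142, 144 and 216 h, against 0.58, 0.348, 1.02 and 0.35 FPKM in late adherent libraries. It was almost silent early in both, between 0.0607 and 0.144 FPKM in SFEB and between 0 and 0.0122 FPKM in adherent culture. Every late SFEB library thus lay above every late adherent one, as it did for 10.6% of all genes, and the protocol difference was 2.52 (SE 0.28, adjusted p = 5.23e-04). Its paralogue *Fezf2*, which specifies subcortical projection neurons, stood at 9.83, 9.21, 4.1 and 6.48 FPKM in late SFEB and at 1.16, 0.604, 2.12 and 0.262 FPKM in late adherent culture. The 2 groups did not overlap, and the difference was 1.90 (SE 0.35, adjusted p = 0.0111).

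*Lhx2*, a LIM homeodomain factor needed for cortex and eye, reached 25.4, 26.1, 10.4 and 23.2 FPKM in late SFEB. In late adherent culture it reached 3.19, 2.42, 3 and 7.17 FPKM. Its early levels were below 1 FPKM in both. It therefore rose in both protocols, by 3.75 in SFEB and 1.77 in adherent culture on the log2 scale, with a protocol difference of 1.98 (SE 0.38, adjusted p = 0.0132). *Otx1*, an orthodenticle factor of forebrain and midbrain, was at 4.83, 6.2, 4.74 and 10.6 FPKM in late SFEB and at 0.377, 0.326, 1.55 and 0.591 FPKM in late adherent culture. Its change in adherent culture did not pass the test (0.48, adjusted p = 0.0913), and the protocol difference was 2.05 (SE 0.31, adjusted p = 0.00497). *Dmrt3*, a DM-domain factor of the medial cortex that also marks a class of spinal interneurons, showed 5.04, 7.77, 2.7 and 1.91 FPKM against 0.358, 0.456, 1.77 and 0.307 FPKM, with a difference of 1.65 (SE 0.40, adjusted p = 0.0453). The calls of *Fezf1*, *Fezf2*, *Lhx2* and *Otx1* held without any 1 of the 17 libraries, while that of *Dmrt3* was lost in 13 of the 17 omissions, with the highest p without the adherent 8.5 h library (1.64, adjusted p = 0.123).

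*Dmrta2*, a relative of *Dmrt3*, did not pass the test, with a difference of 1.43 (adjusted p = 0.092). Other members of the list were close to 0: *Sp8* at -0.02, *Gsx1* at 0.05 and *Otx2* at 0.43, with *Otx2* between 27.9 and 50.1 FPKM in late SFEB and between 16.6 and 32.5 FPKM in late adherent culture. The forebrain list was thus uneven. With 0 h libraries alone as the baseline, or in the parallel series alone, 0 of its members were called; in the first series alone 7 were, and without any 1 library between 4 and 7.

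**Figure D2:**
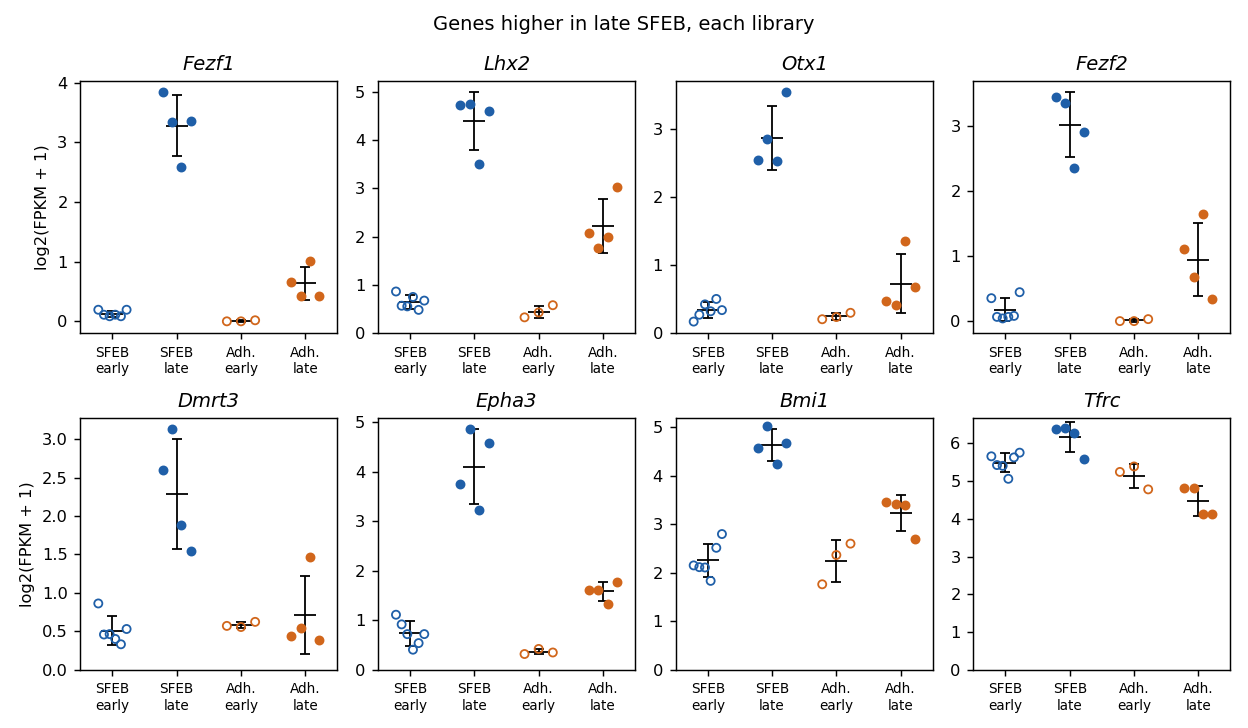
Levels of 8 genes with positive protocol differences, as log2(FPKM + 1), with 1 point per library (open, early; filled, late; blue, SFEB; orange, adherent) and the mean with its SD in black. In every panel the mean of the 4 late SFEB libraries lies above that of the 4 late adherent ones.

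*Fezf1* and *Otx1* were already higher in some SFEB libraries before the late ones. Between 22 and 106 h, *Fezf1* reached 7.35 FPKM in SFEB, at 103 h, and 0.235 FPKM at most in the 8 adherent libraries of 20.5 to 101.5 h. *Otx1* reached 20.8 FPKM at 103 h in SFEB and 0.193 FPKM at most in adherent culture over that period. *Lhx2* reached 14.1 FPKM in SFEB and 3.53 FPKM in adherent culture, while its medians over that period ran the other way, at 1.14 and 2.04 FPKM. In the late SFEB cultures these transcripts were in few of the single cells sequenced from them. Of 8 cells at 216 h, 1 had *Fezf1*, 1 had *Lhx2* and 2 had *Epha3* above 1 RPKM, and of 8 cells at 144 h no cell had any of them above it. The cell values are quantile-normalized with a depth that is unknown, and *Pax6*, at 28.5 and 20.7 FPKM in the matching populations, was above 1 RPKM in 6 and 1 of the 8 cells.

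Positional genes further back were taken next. Of 15 *Hox* genes tested, 1 was called higher in SFEB, beside 0.397% of all genes, and 0 lower, beside 1.27%, with a median of 0.09. It was *Hoxa4*, a hindbrain and cervical cord gene, at 4.01, 5.35, 2.3 and 2.17 FPKM in late SFEB and at 0.816, 1.21, 0.678 and 1.11 FPKM in late adherent culture (1.11, SE 0.27, adjusted p = 0.0459), a call lost in 13 of the 17 omissions, with the highest p without the adherent 8.5 h library (0.123). *Hoxb4* differed by 0.47 (SE 0.33, adjusted p = 0.551). *Hoxa2* and *Hoxb2*, the most abundant of the list, differed by -0.23 and 0.09, and both rose in both protocols. *Hoxb2* stood at 28.1, 35, 36.3 and 24.2 FPKM in late SFEB and at 25.9, 26.5, 8.52 and 14.5 FPKM in late adherent culture. Of 22 midbrain and hindbrain factors 0 were called, with a median of -0.21, and *En1*, a midbrain-hindbrain boundary factor, differed by -0.20 (SE 0.44, adjusted p = 0.894).

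Most genes common to neural progenitors and neurons rose in both protocols: 24 of 27 neural progenitor and radial glia genes, 23 of 25 proneural factors and 22 of 29 neuronal cytoskeleton genes did, beside 27.9% of all genes, while *Sox2* fell in adherent culture (-0.83) and *Nefh*, a neurofilament, fell in both (-2.67 in SFEB, -1.66 in adherent culture). For the protocol difference, 0 members of these lists passed the test in either direction, and the 3 medians were -0.07, -0.09 and 0.05. With a block by matched time, 2 progenitor genes were called higher and 2 lower, with 2 proneural and 3 neuronal genes called higher. *Sox1*, the earliest neuroectoderm marker, was at 48.4, 33.6, 33.7 and 37 FPKM in late SFEB and at 38.8, 45.2, 30.8 and 33.2 FPKM in late adherent culture. The ranges overlapped, and the protocol difference was -0.20 (SE 0.27, adjusted p = 0.802). *Nes*, an intermediate filament of progenitors, differed by 0.16 (SE 0.30), *Hes5*, a Notch target, by -0.79 (SE 0.56) and *Neurog2*, a proneural factor, by 0.63 (SE 0.50), with adjusted p-values of 0.865, 0.561 and 0.609. *Fabp7*, a radial glia lipid carrier, had a difference of -1.39 with an SE of 1.13 (adjusted p = 0.62). Its early SFEB values were 0 FPKM in both libraries of the parallel series and 12.9 to 14.4 FPKM in the first series, beside 0.117 to 0.349 FPKM in early adherent culture, and its difference was -2.85 in the first series alone (adjusted p = 0.00162), 1.35 in the parallel series alone and 0.88 with no baseline taken off. With standard errors of 0.27 to 1.13, a p that misses the threshold does not show that these genes behaved alike.

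In some markers the protocols differed more early than late. *Pax6*, a progenitor factor, had overlapping late levels, at 50.9, 50.5, 28.5 and 20.7 FPKM in SFEB and 32.6, 32.3, 25.7 and 20.9 FPKM in adherent culture. Early, however, it was between 1.87 and 8.27 FPKM in SFEB and between 10.8 and 15.9 FPKM in adherent culture, and its protocol difference was 1.81 (SE 0.49, adjusted p = 0.0709). *Tubb3*, the neuronal tubulin, likewise differed by 1.53 (SE 0.42, adjusted p = 0.0762), with 42.1 to 72.4 FPKM in early SFEB, 149 to 207 FPKM in early adherent culture and a late difference of -0.13. In *Sox2*, by contrast, the early difference was 0.04 and the late one 0.64, with 85.8 to 106 FPKM in late SFEB and 56.8 to 64 FPKM in late adherent culture, and the protocol difference was 0.60 (SE 0.15, adjusted p = 0.0594). The neuronal genes *Dcx* and *Stmn2* both differed by -0.15 (SE 0.74 and 0.48), and early *Dcx* was at 0 in the 2 SFEB libraries of the parallel series and between 2.04 and 2.08 FPKM in the 4 of the first, as batch-corrected values.

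Beside the forebrain list, several genes higher in SFEB were of other kinds. *Epha3*, an ephrin receptor that guides axons, was at 12.5, 28.1, 8.39 and 22.8 FPKM in late SFEB and at 2.07, 2.07, 1.51 and 2.43 FPKM in late adherent culture, from less than 1.2 FPKM early in both. The groups were far apart, with a difference of 2.15 (SE 0.37, adjusted p = 0.00801) that held without any 1 library. *Bmi1*, a Polycomb component that sustains neural stem cells, was at 22.7, 31.7, 17.8 and 24.6 FPKM against 9.93, 9.62, 9.49 and 5.44 FPKM (1.38, SE 0.34, adjusted p = 0.0465). *Tfrc*, the transferrin receptor, rose in SFEB and fell in adherent culture, with late levels of 83, 84.2, 75.8 and 46.7 FPKM against 27, 27.3, 16.5 and 16.4 FPKM (1.34, SE 0.31, adjusted p = 0.0354). The calls of *Bmi1* and *Tfrc* were lost in 13 and 9 of the 17 omissions, and their p-values were highest without the adherent 8.5 h library (0.162) and the adherent 2.5 h library (0.126).

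For the rest of the 10 largest positive differences among called genes with a mean of at least 10 FPKM in a late group and the same sign in all 4 pairs, the early libraries differed more than the late ones. *Smyd2*, a lysine methyltransferase, was at 15.5, 15.5, 20.5 and 13.2 FPKM in late SFEB and at 17.1, 13.9, 16.4 and 14 FPKM in late adherent culture, which overlap. Early it was between 12.2 and 17.1 FPKM in SFEB and between 29.2 and 34.1 FPKM in adherent culture, which gave its protocol difference of 1.08 (SE 0.20, adjusted p = 0.00916). *Sirt6*, a deacetylase of chromatin, *Kctd15*, *Carkd*, *Mettl17* and *Jmjd8* had differences from 0.97 to 1.13 and late differences from -0.13 to 0.46. *Kctd15*, an inhibitor of neural crest formation, was at 16.6 to 24.2 FPKM in late SFEB and at 20.6 to 26.1 FPKM in late adherent culture. Of these 6, *Smyd2*, *Carkd* and *Jmjd8* kept their calls without any 1 library; *Sirt6* lost its without the adherent 8.5 h library (adjusted p = 0.0512), *Kctd15* in 4 omissions and *Mettl17* in 14, with the highest p without the adherent 8.5 h library (0.091) and the adherent 0 h library (0.116).

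*Stra8*, a retinoic acid-induced gene of germ cells, also differed more early than late. It fell from 11.5, 13.6 and 20.2 FPKM in early adherent culture to 0.403, 0.286, 0.0985 and 0.029 FPKM, and in SFEB from between 1.18 and 2.96 FPKM to 0.387, 0.17, 1.69 and 0.0299 FPKM. Its difference, 2.74 (SE 0.37, adjusted p = 0.00224), was the largest of the 52, but the late levels overlapped. *Tcfap2c*, an AP-2 factor of trophoblast and germ cells with an early difference of -1.04 and a late one of 1.23, fell in adherent culture from 30.1, 24.5 and 34.3 FPKM to 1.72, 1.69, 2.32 and 2.45 FPKM and in SFEB from between 8.95 and 17.3 FPKM to 5.06, 8.54, 11.9 and 2.39 FPKM (2.27, SE 0.43, adjusted p = 0.0124). It was the only member of the epithelial list called higher in SFEB. Both calls held without any 1 library. *Slc17a7*, the vesicular glutamate transporter of cortical neurons, was the only called gene of 33 synaptic genes, beside 0.397% of all genes called higher. It was at 0.851, 1.34, 1.06 and 0.849 FPKM in late SFEB and 0.55, 0.492, 0.344 and 0.353 FPKM in late adherent culture. Early it was between 0.733 and 1.31 FPKM in SFEB and between 1.28 and 1.82 FPKM in adherent culture. Its change in SFEB did not pass the test (-0.01, adjusted p = 0.972), and it fell in adherent culture (-0.82). Its difference was 0.81 (SE 0.19, adjusted p = 0.0357), and the call was lost in 10 omissions, with the highest p without the adherent 8.5 h library (0.127).

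The endoderm list had the most genes called lower in SFEB. Of its 32 genes 20 were tested, and members such as *Gata4* passed the filter mainly through the adherent libraries, where they are high, so the counts describe the tested members only. Of the 20, 11 were called lower and 0 higher, beside 1.27% of all genes, and the median protocol difference was -2.14, with all 20 values below 0. The called members were *Col4a1*, *Col4a2*, *Lama1*, *Lamb1*, *Lamc1*, *Dab2*, *Gata6*, *Gata4*, *Sparc*, *Thbd* and *Pth1r*. Of the 11, 8 stand in another list as well. Without any 1 library between 8 and 13 members were called, with 12 in the first SFEB series alone, 0 in the parallel series alone, 0 with the 0 h libraries alone as the baseline, and 14 and 12 with the 125.5 to 142 h and the 144 and 216 h libraries alone as the late groups.

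*Col4a1* and *Col4a2*, the head-to-head genes of the chief type IV collagen chains, gave the clearest case. *Col4a1* rose in adherent culture from 20.7, 16.9 and 14.2 FPKM to 51.7, 85.1, 247 and 274 FPKM at 125.5, 140.5, 144 and 216 h. In SFEB it fell, from between 28.4 and 46.4 FPKM to 13.9, 12, 25.6 and 22.4 FPKM. Every late adherent library lay above every SFEB library, early or late, and the difference was -3.95 (SE 0.56, adjusted p = 0.00316). *Col4a2* followed it, at 29.4, 48.7, 147 and 166 FPKM in late adherent culture and 11.6, 11.7, 17.9 and 18.6 FPKM in late SFEB (-3.34, SE 0.56, adjusted p = 0.00647).

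The laminin chains that assemble with them were called lower as well. *Lama1*, the alpha chain of embryonic laminin, rose in adherent culture to 24, 33, 73.6 and 89.2 FPKM, from between 3.17 and 6.18 FPKM. In SFEB it stood at 6.58, 6.78, 9.83 and 8.52 FPKM, with no change that passed the test (0.23, adjusted p = 0.589), and the protocol difference was -2.99 (SE 0.53, adjusted p = 0.00908). *Lamb1*, the beta chain, was at 35.3, 50.1, 137 and 113 FPKM in late adherent culture and at 11.6, 6.54, 20.3 and 11.6 FPKM in late SFEB (-3.21, SE 0.51, adjusted p = 0.00548). *Lamc1*, the gamma chain, was at 36.2, 47.3, 98.2 and 101 FPKM and at 16.8, 13.4, 25.2 and 23.2 FPKM, with a difference of -1.78 (adjusted p = 0.0453). The late groups did not overlap for any of the 3 chains, as in 7.74% of all genes with SFEB below, and the SFEB side fell for *Lamb1* and *Lamc1*. The adherent change of *Lamc1* did not pass the test (0.45, adjusted p = 0.265). Within the list of extracellular matrix and integrin genes, these 5 and *Thbs2*, a secreted glycoprotein, were the 6 called lower of 34 tested, beside 1.27% of all genes, with 0 higher and a median of -0.60. The lower calls ranged from 4 to 8 without any 1 library, with 0 in the parallel series alone. Integrins, the receptors for laminin, had no call: *Itgb1* differed by -0.73 (adjusted p = 0.248) and *Itga6* by -0.33 (adjusted p = 0.665).

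The transcription factors of extraembryonic endoderm were called lower. *Gata4* was at 0.218, 0.187, 0.853 and 0.356 FPKM in late SFEB and at 2.96, 4.66, 11.9 and 11.1 FPKM in late adherent culture, from between 0.275 and 0.421 FPKM in early adherent culture. The late groups did not overlap, and the difference was -2.75 (SE 0.42, adjusted p = 0.00505). *Gata6* was at 0.161, 0.159, 0.74 and 0.332 FPKM against 1.65, 2.23, 7.24 and 3.92 FPKM (-2.26, SE 0.38, adjusted p = 0.00641). Early *Gata6* was between 0.733 and 1.51 FPKM in SFEB and between 0.36 and 0.576 FPKM in adherent culture, and it reached 2.48 FPKM in SFEB at 106 h. *Dab2*, an endocytic adaptor of primitive and visceral endoderm, rose in adherent culture to 7.74, 9.03, 49 and 18 FPKM and was at 4.19, 3.31, 5.22 and 2.99 FPKM in late SFEB (-3.11, SE 0.54, adjusted p = 0.00801). *Srgn*, a granule proteoglycan that stands in none of the lists, showed 0.165, 0.276, 1.36 and 1.72 FPKM against 4.98, 6.73, 23.9 and 15.9 FPKM (-3.77, SE 0.53, adjusted p = 0.00316). The calls of *Col4a1*, *Col4a2*, *Lama1*, *Lamb1*, *Gata4*, *Gata6*, *Dab2* and *Srgn* held without any 1 of the 17 libraries. *Sox17*, an endoderm factor, was listed only in the adherent table, at 0.967, 1.95, 10.9 and 5.42 FPKM late and at 0.0825 to 0.133 FPKM early.

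**Figure D3:**
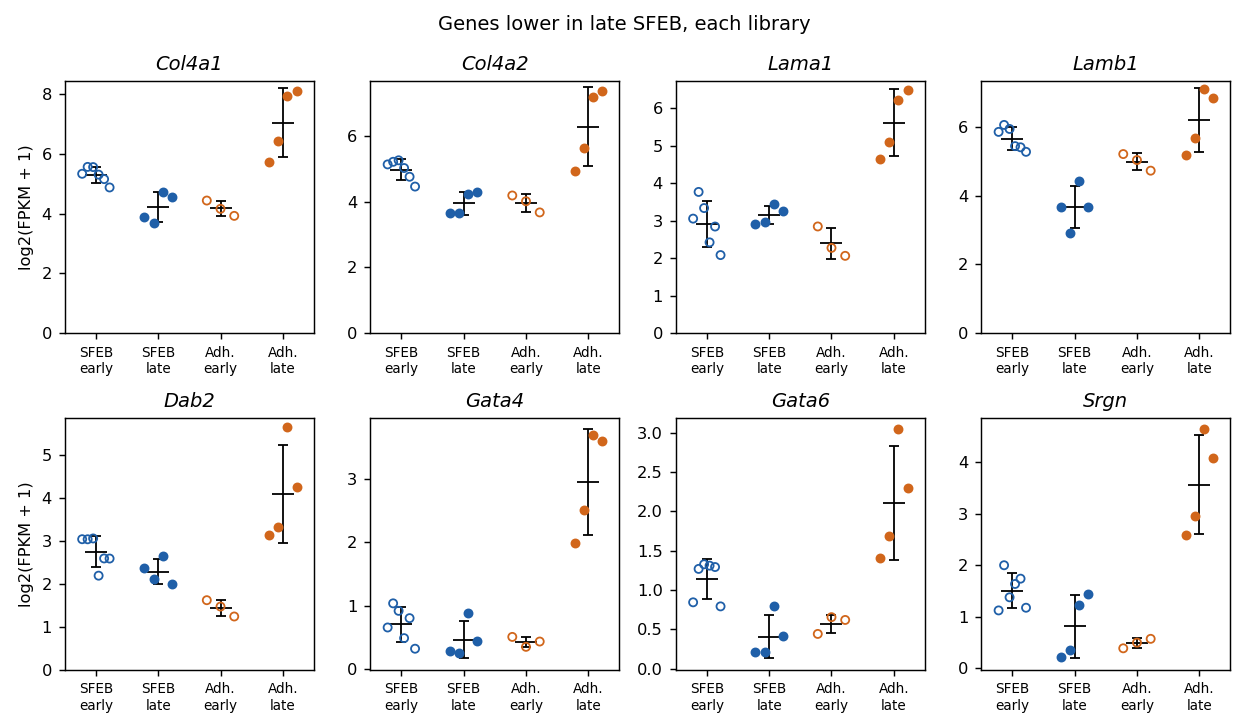
Levels of 8 genes with negative protocol differences, as log2(FPKM + 1), with 1 point per library (open, early; filled, late; blue, SFEB; orange, adherent) and the mean with its SD in black. The 4 late adherent libraries lie above all 4 late SFEB libraries in each panel, and the adherent 144 and 216 h libraries above the 125.5 and 140.5 h ones.

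Not every endoderm gene took part. *Foxa2*, a factor of definitive endoderm and floor plate, was at 3.32, 2.64, 14.1 and 18.2 FPKM in late SFEB and at 0.832, 1.11, 13.6 and 8.17 FPKM in late adherent culture, and its difference was -0.04 (adjusted p = 0.992). *Apoe* differed by -0.10 and *Trf*, which encodes transferrin, by -0.71. *Rbp4*, a retinol carrier, was at 2.18, 3.08, 27.4 and 17.8 FPKM in late adherent culture and at 0.461 to 2.52 FPKM in late SFEB, yet at -2.58 it did not pass (adjusted p = 0.0789). *Sparc*, a matricellular protein, was called at -2.20 (SE 0.49, adjusted p = 0.0303), with 53.2, 36, 62.9 and 80.3 FPKM against 97.9, 136, 382 and 314 FPKM, and lost the call in 9 of the 17 omissions, with the highest p without the adherent 8.5 h library (0.105). *Thbd*, for thrombomodulin, differed by -2.05 mainly through early levels of 4.79 to 11.3 FPKM in SFEB against 1.19 to 1.79 FPKM in adherent culture. *Pth1r*, a parathyroid hormone receptor of parietal endoderm, rose in both and more in adherent culture (-1.88, adjusted p = 0.0305).

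**Figure D4:**
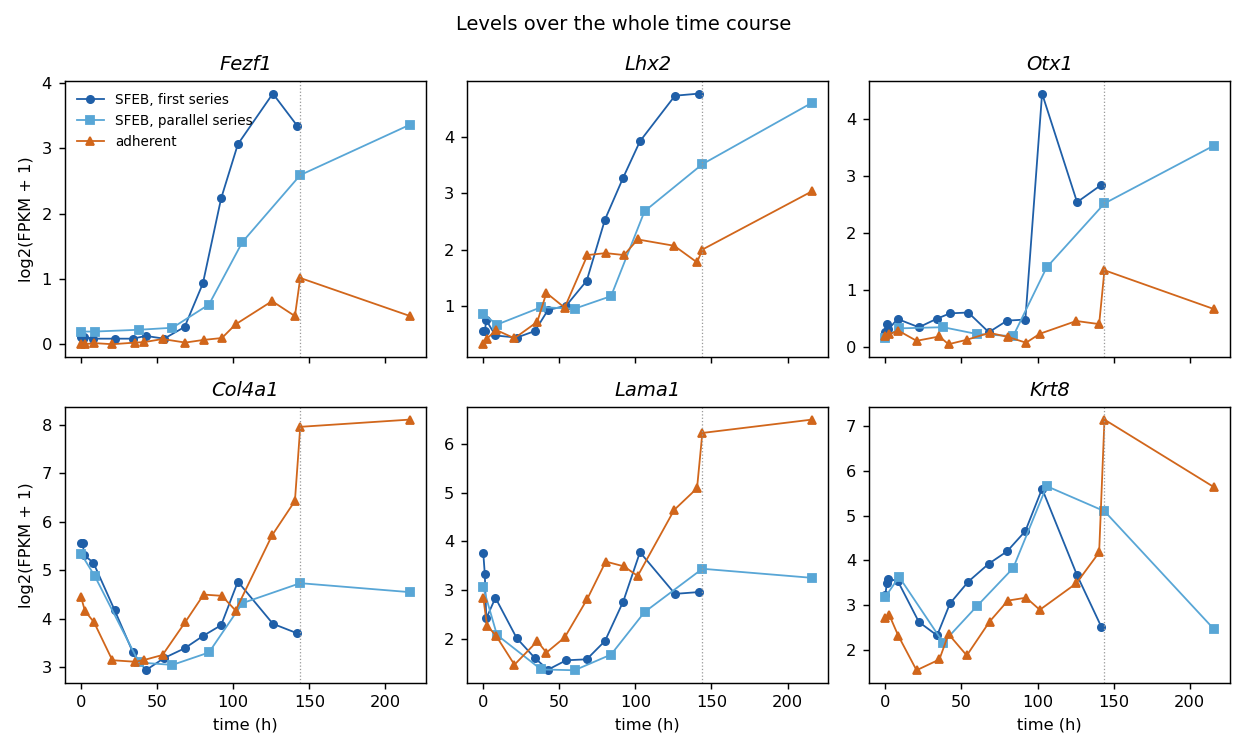
Levels of 6 genes over all 37 population libraries, as log2(FPKM + 1) against hours of differentiation, for the first SFEB series (circles), the parallel SFEB series (squares) and adherent culture (triangles); the dotted line is at 144 h. *Fezf1*, *Lhx2* and *Otx1* reached higher levels in SFEB than in adherent culture before 106 h, *Col4a1* and *Lama1* rose in adherent culture after 101.5 h, and *Krt8* is highest in the adherent 144 h library.

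Over the middle of the time course the matrix genes were alike in range. *Col4a1* stood between 6.67 and 26.2 FPKM in the 12 SFEB libraries of 22 to 106 h and between 7.66 and 21.6 FPKM in the 8 adherent ones. *Lama1* reached 12.7 FPKM at most in SFEB and 11 FPKM in adherent culture, and *Dab2* 4.08 and 4.88 FPKM. The late adherent levels of all 3 thus lay above the range of either protocol in that period. The median protocol difference of the endoderm list was -1.16, -2.02, -2.72 and -2.56 for the pairs at 126, 142, 144 and 216 h, beside -0.03, -0.02, -0.11 and -0.01 over all genes.

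Epithelial genes had calls in both directions. Of 23 tested, 3 were called lower in SFEB, beside 1.27% of all genes, and 1 higher, beside 0.397%, with a median of -0.96. The lower calls ranged from 0 to 9 without any 1 library, with 7 in the first series alone, 0 in the parallel series alone and 10 with a block by matched time. *Cldn3*, a tight junction claudin, was at 2.5, 0.522, 4.2 and 0.521 FPKM in late SFEB and at 4.83, 8.32, 14.6 and 4.03 FPKM in late adherent culture, with 1 adherent library, that of 216 h, just below the SFEB 144 h one (-2.96, SE 0.60, adjusted p = 0.0182). *Cldn7* was at 6.56, 2.46, 11.3 and 2.73 FPKM against 13.2, 16.1, 36.1 and 11.8 FPKM (-2.65, SE 0.56, adjusted p = 0.0247). *Perp*, a desmosome gene and target of p53, was the third (-2.17, SE 0.49, adjusted p = 0.0321). *Cldn3* lost its call without the adherent 2.5 h (adjusted p = 0.0605) or 8.5 h (0.0644) library, *Cldn7* in 3 omissions and *Perp* in 9, both with the highest p without the adherent 2.5 h library (0.0865 and 0.103). The keratin *Krt8* ranged so widely that its difference of -2.52 did not pass (SE 0.86, adjusted p = 0.159): it was at 10.2, 17.1, 141 and 48.8 FPKM in late adherent culture and at 11.7, 4.69, 33.3 and 4.5 FPKM in late SFEB.

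Markers of other cell types were uneven among the late libraries. In SFEB the parallel 144 h library held 117 FPKM of *Pou5f1*, a pluripotency factor, against 39, 23.7 and 65.3 FPKM at 126, 142 and 216 h, and 19.7 FPKM of the mesoderm factor *T* against 3.33 to 4.53 FPKM. In adherent culture *Pou5f1* was at 171 and 135 FPKM at 125.5 and 140.5 h, above all 4 late SFEB libraries, and at 62.4 and 86.4 FPKM at 144 and 216 h. The adherent 144 and 216 h libraries held 22.7 and 11.2 FPKM of *T*, against 0.458 and 0.489 FPKM at 125.5 and 140.5 h. *Col4a1*, *Lama1*, *Gata4* and *Gata6* were called without either 144 h library and without the adherent 216 h library. The protocol differences of *T* (-0.49, SE 1.01, adjusted p = 0.881) and *Pou5f1* (-0.63, SE 0.50, adjusted p = 0.612) lay within the spread. *Zfp42*, a marker of naive pluripotency, fell from 296 to 373 FPKM in SFEB to between 10.1 and 61.4 FPKM, and from 298 to 407 FPKM in adherent culture to between 12.5 and 18.2 FPKM (0.52, SE 0.52, adjusted p = 0.71). Of 18 naive and 17 core pluripotency genes 0 were called, with medians of -0.01 and -0.47. With the late libraries of 125.5 to 142 h alone, 3 naive and 6 core genes were called lower, and in the first series alone 3 and 3. The core median ran from -1.19 in the pair at 126 h to 0.62 in the pair at 144 h. In these bulk samples fewer cells of a type and less RNA per cell cannot be told apart.

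Epiblast and signalling genes gave a smaller group. Of 15 epiblast genes 3 were called lower, beside 1.27% of all genes, and 0 higher, with a median of -1.08. The lower calls ranged from 0 to 3 without any 1 library, with 5 in the first series alone, 0 in the parallel series alone and 7 with a block by matched time. *Fgf5*, a ligand made by primed epiblast, was at 2.62, 1.89, 3.37 and 0.877 FPKM in late SFEB and at 6.95, 4.04, 8.56 and 3.1 FPKM in late adherent culture. The groups overlapped only at the adherent 216 h library, and the difference was -1.86 (SE 0.35, adjusted p = 0.0134; without the adherent 2.5 h library 0.0541). *Pou3f1*, a POU factor of epiblast and early neuroectoderm, was at 4.12, 2.03, 3.69 and 8.42 FPKM against 14.2, 10.1, 7.81 and 6.46 FPKM (-1.79, SE 0.44, adjusted p = 0.0459), overlapping at 216 h. *Lefty2*, a Nodal antagonist, was called at -2.14 (SE 0.53, adjusted p = 0.0474) with late levels that were not lower in SFEB: 4.33, 4.61, 19.2 and 10.3 FPKM against 5.06, 4.62, 4.31 and 3.73 FPKM. Its early levels, 26.1 to 65 FPKM in SFEB and 2.49 to 8.6 FPKM in adherent culture, differed far more than the late ones. *Pou3f1* lost its call in 13 omissions and *Lefty2* in 12, with the highest p without the adherent 2.5 h library (0.152) and the adherent 8.5 h library (0.168).

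Among 29 FGF pathway genes 3 were called lower, beside 1.27% of all genes, and 0 higher. The lower calls ranged from 0 to 4 without any 1 library, with 5 in the first series alone and 0 in the parallel series alone. Besides *Fgf5* they were *Fgf15*, a ligand of anterior and midbrain neuroectoderm, which rose in both protocols, to between 8.33 and 19.3 FPKM in SFEB and between 15.9 and 28.2 FPKM in adherent culture (-1.75, SE 0.34, adjusted p = 0.014), and *Fgf3* (-1.14, SE 0.23, adjusted p = 0.0182). *Fgf15* lost its call without the adherent 2.5 h library (adjusted p = 0.0557) and *Fgf3* without the adherent 0 h (0.0555) or 2.5 h (0.0605) library. *Wnt3* was the only call among 38 Wnt pathway genes and among 19 dorsal neural tube genes, beside 1.27% of all genes called lower. It was at 0.947, 1.99, 0.877 and 1.2 FPKM in late SFEB and at 2, 2.86, 4.23 and 4.18 FPKM in late adherent culture. Its highest SFEB and lowest adherent values touched, and the difference was -1.21 (SE 0.26, adjusted p = 0.0247), lost in 4 omissions with the highest p without the adherent 2.5 h library (0.0901). Of 25 Notch and 14 Hedgehog pathway genes 0 were called. Of 33 BMP and TGF-beta genes 2 were called lower, *Inhba* and *Smad7*, beside 1.27% of all genes. The lower calls ranged from 1 to 3 without any 1 library, with 5 in the first series alone and 0 in the parallel series alone. *Inhba*, which encodes an activin subunit, fell in SFEB from 17.1 to 26.9 FPKM to at most 0.862 FPKM and in adherent culture from 2.59 to 7.38 FPKM to at most 0.547 FPKM (-2.06, SE 0.35, adjusted p = 0.00732), and *Smad7*, an inhibitory Smad, differed by -1.59 (adjusted p = 0.0376), with an early difference of 1.48 and a late one of -0.11, and lost its call in 10 omissions, with the highest p without the adherent 8.5 h library (0.134).

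Of 34 hypoxia and glycolysis genes tested, 3 were called lower in SFEB, beside 1.27% of all genes, and 0 higher. The lower calls ranged from 1 to 6 without any 1 library, with 11 under a block by matched time and 0 in the parallel series alone or with the 0 h baseline. The median protocol difference was -1.04, with 31 values below 0, and the median late difference with no baseline taken off was -0.30. The list's median was -0.63, -0.85, -0.60 and -1.95 in the pairs at 126, 142, 144 and 216 h. *P4ha1* and *P4ha2*, the catalytic subunits of the enzyme that hydroxylates collagen, were called, with *Aldoa*, a glycolytic aldolase. *P4ha2* was at 8.36, 5.93, 9.36 and 4.4 FPKM in late SFEB and at 11, 12.5, 14.2 and 20.8 FPKM in late adherent culture, with no overlap (-2.32, SE 0.44, adjusted p = 0.0124). *P4ha1* was at 11.2, 12, 14.8 and 7.95 FPKM against 13.5, 15.9, 23.4 and 29.5 FPKM, which overlap at 144 and 125.5 h (-2.10, SE 0.46, adjusted p = 0.0271). Early, however, both were higher in SFEB, *P4ha2* between 7.37 and 25.9 FPKM against 5.3 to 6.07 FPKM. *P4ha2* kept its call without any 1 library; *P4ha1* lost it in 6 omissions (0.0939 without the adherent 8.5 h library) and *Aldoa* (-1.44, adjusted p = 0.0457) in 14 (0.136 without the same library).

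The upstream sequences of the 2 prolyl hydroxylase genes are shown because both carry the core that hypoxia-inducible factor is known to bind, and because the genes moved together. Of the 30 tested members of the list with a promoter in RefSeq (GRCm38.p6), 18 (60.0%) hold ACGTG, on either strand, in the 250 bases before a start site, as do 18.5% of 27025 genes. All 3 called members do, as do most of the list. The list was picked as hypoxia and glycolysis genes, so its share describes that choice and not the protocols. A tie of the motif to the protocol difference was not tested. A match is a description of letters and not a bound site. The sequences read 5′ to 3′ toward the gene, on the plus strand of chr10:59323046-59323295 for *P4ha1* and chr11:54100674-54100923 for *P4ha2*, with the motif in capitals, 16 and 78 bases before the start site.
P4ha1: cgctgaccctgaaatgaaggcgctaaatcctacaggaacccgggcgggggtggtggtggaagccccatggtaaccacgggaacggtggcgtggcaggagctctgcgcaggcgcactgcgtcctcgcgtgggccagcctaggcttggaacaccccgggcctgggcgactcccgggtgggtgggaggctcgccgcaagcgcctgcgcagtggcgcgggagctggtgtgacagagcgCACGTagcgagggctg
P4ha2: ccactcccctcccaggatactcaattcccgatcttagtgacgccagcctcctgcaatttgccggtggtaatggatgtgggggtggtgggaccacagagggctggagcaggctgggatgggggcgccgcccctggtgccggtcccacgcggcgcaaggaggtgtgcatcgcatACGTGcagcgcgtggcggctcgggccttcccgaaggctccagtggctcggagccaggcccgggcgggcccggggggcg

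Of 30 fibroblast and mesenchyme genes tested, 25 fell in both protocols, beside 17.5% of all genes, and 5 were called lower for the protocol difference, beside 1.27%, and 0 higher. The lower calls ranged from 1 to 10 without any 1 library, with 16 in the first series alone, 0 in the parallel series alone and 1 with the late libraries of 144 and 216 h. The median protocol difference was -1.20, against a median late difference of -0.24 with no baseline taken off, with medians of -3.23 and -2.17 for the change within SFEB and within adherent culture. Summed over 7 fibroblast markers, the level was 311 to 779 FPKM in early SFEB and 238 to 318 FPKM in early adherent libraries, although the cells had been passaged without feeders, and 11.9 to 98.1 and 40.7 to 55.8 FPKM late. *Col6a1*, a collagen of connective tissue, was at 0.612, 0.395, 2.42 and 3.61 FPKM in late SFEB and at 1.57, 2.1, 1.95 and 2.02 FPKM in late adherent culture, which overlap. Early it was between 34.3 and 68.2 FPKM in SFEB and between 12 and 13.7 FPKM in adherent culture (-2.03, SE 0.42, adjusted p = 0.0217). *Col6a3* (-1.82, adjusted p = 0.0209) had the same pattern, while *Thy1*, a surface glycoprotein (-2.43, adjusted p = 0.0448), had an early difference of 1.33 and a late one of -1.10. *Col1a1*, the main fibroblast collagen, differed by -2.17 without passing (SE 0.88, adjusted p = 0.248). The other called members were *Col6a2* (-1.61, adjusted p = 0.00744) and *Sparc*. *Col6a1* lost its call without the adherent 2.5 h (adjusted p = 0.0758) or 8.5 h library, *Col6a3* in 3 omissions (0.0749 without the adherent 2.5 h library) and *Thy1* in 13 (0.142 without the adherent 8.5 h library).

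The part of these early fibroblast levels in the protocol differences of other genes was not tested. Genes with high early levels in SFEB and similar late levels were *Cd44*, a hyaluronan receptor (late difference 0.18, protocol difference -1.77, adjusted p = 0.0357), *Cebpb*, a stress-responsive factor (-0.24 and -1.82, adjusted p = 0.00617), and the AP-1 genes *Fosl1* (0.02 and -1.22, adjusted p = 0.0321) and *Fosl2* (-0.30 and -1.85, adjusted p = 0.0321). *Snai1*, an inducer of epithelial-mesenchymal transition, was the only call of 17 neural crest genes (-1.98, adjusted p = 0.0453), beside 1.27% of all genes called lower. *Cebpb* kept its call without any 1 library; *Cd44*, *Fosl1*, *Fosl2* and *Snai1* lost theirs in 12, 7, 7 and 11 omissions, and each had its highest p without the adherent 8.5 h library (0.126, 0.109, 0.109 and 0.127).

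*Pdgfra*, a growth factor receptor of mesoderm and extraembryonic endoderm that also marks oligodendrocyte precursors, was at 1.04, 1.05, 0.684 and 1.92 FPKM in late SFEB and at 1.25, 1.98, 13.9 and 8.21 FPKM in late adherent culture (-2.85, SE 0.59, adjusted p = 0.0209), overlapping at the adherent 125.5 h library. *Pdgfra*, *Cd44* and *Aldoc* (-1.97, adjusted p = 0.0223) were the calls among 18 glial genes, all lower, beside 1.27% of all genes, with a median of -0.26. The lower calls of that list ranged from 0 to 3 without any 1 library, with 6 in the first series alone and 0 in the parallel series alone. *Cdkn2a*, a cell cycle inhibitor, was at 1.16, 1.11, 4.98 and 3.48 FPKM in late SFEB and at 10.8, 11.4, 11.2 and 9.22 FPKM in late adherent culture, from 13.7 to 34.7 and 16.6 to 17.2 FPKM early (-2.08, SE 0.42, adjusted p = 0.018). It was the only call of 39 cell cycle genes, beside 1.27% of all genes called lower. The median of that list was 0.01, and *Mki67*, a proliferation marker, differed by 0.24 (SE 0.67, adjusted p = 0.919). *Cryab*, a small heat shock protein, was at 0.228, 0.0801, 1.93 and 2.05 FPKM against 4, 7.77, 25.6 and 15.6 FPKM (-3.20, SE 0.68, adjusted p = 0.0241). *Pdgfra*, *Cdkn2a* and *Cryab* lost their calls in 3, 2 and 4 omissions, among them those of the adherent 2.5 h library (adjusted p = 0.0699, 0.0605 and 0.073). *Kdelr3*, a receptor that returns proteins to the endoplasmic reticulum (-2.47, adjusted p = 0.0212), and *Tfpi*, an inhibitor of coagulation (-2.34, adjusted p = 0.026), completed the 10 largest negative differences chosen by the same rule (a late group mean of at least 10 FPKM and 1 sign in all 4 pairs) and lost their calls in 3 and 5 omissions, with the highest p without the adherent 8.5 h library (0.076 and 0.0829).

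**Figure D5:**
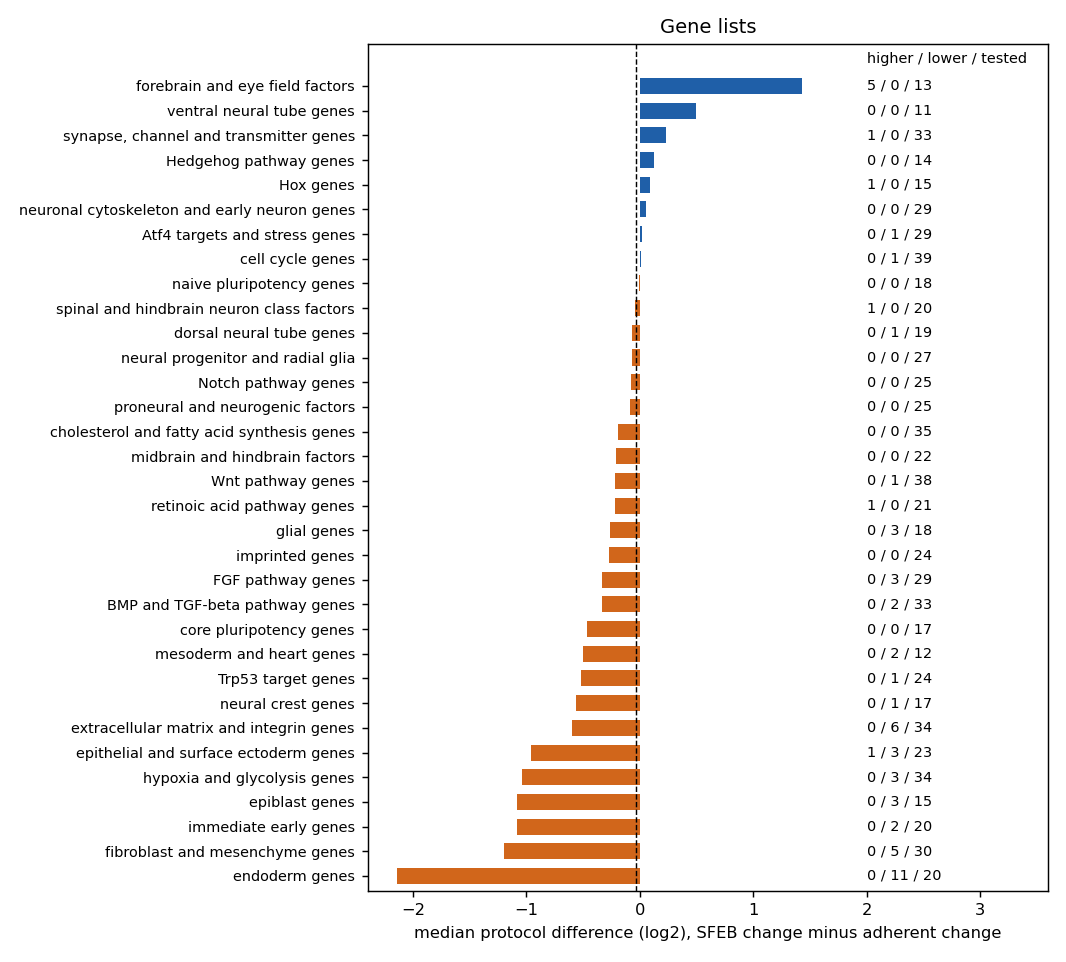
Median protocol difference (log2) of 33 gene lists, with the median of all genes as the dashed line and, at the right, the members called higher, called lower and tested. The forebrain list lies at 1.43 and the endoderm list at -2.14; lists of progenitor, proneural and neuronal genes lie near 0.

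The calls of the remaining lists stand beside 0.397% of all genes called higher and 1.27% called lower. Of 11 ventral neural tube genes, 35 cholesterol and fatty acid synthesis genes and 24 imprinted genes 0 were called, with medians of 0.49, -0.19 and -0.27. Of 12 mesoderm and heart genes 2 were called lower, *Gata4* and *Gata6*, beside 1.27% of all genes. Of 20 immediate early genes 2 were, *Fosl1* and *Fosl2*. The medians of the 2 lists were -0.50 and -1.08, and in the parallel series alone 0 members of either were called lower. *Cebpb* was the only call of 29 Atf4 target and stress genes (median 0.02), *Perp* of 24 p53 target genes (median -0.52), *Stra8* of 21 retinoic acid pathway genes (median -0.22) and *Dmrt3* of 20 spinal and hindbrain neuron class factors (median -0.04).

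The 17 libraries could not be compared in depth, since FPKM and batch-corrected values hold no read counts. They listed 11271 to 12122 of the shared genes at 1 FPKM or more. Late libraries of the 2 protocols correlated at 0.9749, 0.9517, 0.9604 and 0.9374 (Pearson r over genes, which are not independent) in the pairs at 126, 142, 144 and 216 h. Between 3 and 166 SFEB values per library were below 0 after batch correction and were set to 0. With each gene centred on its mean over the libraries, the median of the longest of 5 transcript length classes minus that of the shortest (log2) was -0.44 to -0.33 in early adherent culture and -0.04 to 0.20 in late, and 0.25 to 0.54 in late SFEB. In early SFEB it was -0.62 in the 2 h library and -0.02 to 0.11 in the others, and the median protocol difference of the 5 classes stayed between -0.05 and -0.01.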

How the data were processed

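FPKM values of genes were deposited by the authors. Per the labels, reads were aligned with TopHat2 2.0.8b and summarized with Cufflinks 2.1.1 on mm9, whereas the methods of the study name other versions. Libraries were made with Nextera XT. The deposited SFEB values are FPKM after ComBat batch correction by the authors. The single-cell values were deposited as log10(RPKM + 1) after quantile normalization by the authors. Libraries of E14 mESCs, wild-type and *Fyn* knockout, were not used here.

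From these files, 13186 genes listed for both protocols were joined (13541 SFEB, 13738 adherent), SFEB values below 0 were set to 0, and 13089 genes with at least 1 FPKM in 3 of the 17 libraries were kept. Each table lists only genes that reach about 1 FPKM in some library. The log2(value + 1) data were fitted with limma 3.58.1 (R 4.3.3) as 4 group means with a trended empirical Bayes variance, and p-values of the interaction were adjusted by Benjamini-Hochberg (threshold 0.05). Fold changes on this scale understate those of low genes. The fit was tested on simulated data with the real genes' means: of genes changed by 1 on the log2 scale 52% were recovered, and of those changed by 2, 91%, with 7 false calls. The simulated noise was independent around 4 group means, without time trends, SFEB series or batch correction. It does not show how the fit does where those are present.

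Named genes were the 10 largest differences in each direction among called genes with a mean of at least 10 FPKM in a late group and the same sign in all 4 time-matched pairs, up to 4 called members of each list, and a set of common markers. Some items are not reported here. Other genes were named after their values were seen. The comparison, members and lists were chosen with earlier results of these data known. Read depth is unknown, so no counting interval is given. Alternatives were other pseudocounts, filters, normalizations, variance models, baselines, series, times and each library left out. Promoters are from RefSeq (GRCm38.p6), a later build than that of the expression values, and were matched by gene symbol. Tables were made with Python 3.11.15, numpy 2.4.6 and pandas 2.3.3.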

Additional observations from a re-analysis of the deposited data

Results flagged for a closer look

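A gap test (Dixon) was run on 222 groups of 4 or 6 libraries for the named genes, and 17 groups had a library that stood apart; chance gives about 1 in 20. Among late adherent libraries, that of 216 h was highest for *Lhx2* (7.17 FPKM, next 3.19) and *Dcx* (34.9, next 14) and lowest for *Bmi1* (5.44, next 9.49). The adherent 144 h library was highest for *Tfpi* (25.7 FPKM, next 7.38), *Dmrt3* (1.77, next 0.456) and *Fosl2* (2.71, next 0.844), and the adherent 125.5 h library for *Fosl1* (0.189, next 0.0769). Among late SFEB libraries, *T* was highest at 144 h (19.7 FPKM, next 4.53) and *En1* at 216 h (8.86, next 2.89).

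Among early SFEB libraries, the 2 h library was highest for *Snai1* (16.4 FPKM, next 9.36), *Nes* (21.2, next 13.5), *Hes5* (2.16, next 0.975) and *Stmn2* (188, next 118). The parallel 0 h library was highest for *Dmrt3* (0.818 FPKM, next 0.444) and *Hoxa4* (0.532, next 0.196) and lowest for *Perp* (16, next 24.8). The parallel 9 h library was lowest for *Fgf3* (0.414 FPKM, next 1.01). The change from early to late differed between the protocols for 218 genes, tested as the interaction in limma at an adjusted p below 0.05, and those genes are the ones described above.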

How the results depend on the processing

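The numbers of genes called higher and lower in late SFEB, 52 and 166, moved with most choices. With a pseudocount of 0.1, 28 were higher; with a filter of 5 FPKM, 28 and 74; with quantile normalization, 95 were higher. A replicate block by matched time gave 191 and 555. The libraries share a time and not a culture, and no count within a protocol could be had under that block. The first SFEB series alone gave 112 and 442. The parallel series gave 1 and 0, with 5030 genes changed within SFEB, where all libraries gave 8039. The 0 h libraries as the only baseline gave 0 and 0 by limma, with 1469 genes at an unadjusted p below 0.05, and 4507 genes changed within adherent culture, where all libraries gave 7114. Late libraries of 125.5 to 142 h gave 80 and 285 and those of 144 and 216 h gave 17 and 83; both choices were made after seeing the data. With no early difference taken off, 1071 and 632 were called, across values normalized separately. Without any 1 library, 20 to 86 were higher, 43 to 295 lower, 7198 to 8173 changed within SFEB and 6197 to 7470 within adherent culture. The causes of these shifts were not tested.

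Of 55 called genes that are named, 6 changed sign, all with no early difference taken off: *Kctd15* (-0.13), *Cd44* (0.18), *Lefty2* (0.75), *Col6a3* (0.34), *Inhba* (0.10) and *Fosl1* (0.02). Named genes with no call gained 1 in 27 results, each of them 1 gene under 1 alternative. These were *Pax6* in 6 alternatives (adjusted p down to 0.00272), *Tubb3* in 5 (0.00115), *Sox2* in 4 (0.0032), *Krt8* in 4 (0.0113), *Col1a1* in 3 (8.44e-04) and *Fabp7*, *Hoxb4*, *Mki67*, *Neurog2* and *Pou5f1* in 1 each. The other changes of sign were in markers that had no call. With no early difference taken off, *Sox1* was at 0.04, *Fabp7* 0.88, *Tubb3* -0.13, *Dcx* 0.90, *En1* 0.44 and *T* 0.51. In the parallel series, *Fabp7* was at 1.35, *Dcx* 1.10, *Stmn2* 0.59, *Otx2* -0.09, *En1* 0.58, *Pou5f1* 0.14 and *T* 0.80, and in the first series *Sox1* was at 0.03 and *Zfp42* -0.42. With late libraries of 144 and 216 h, *Neurog2* was at -0.20, *En1* 0.07 and *Pou5f1* 0.63, and with those of 125.5 to 142 h *Dcx* was at 0.07, *Zfp42* -0.34 and *T* 0.69. With the 0 h baseline, *Dcx* was at 0.13, *Stmn2* 0.08 and *Mki67* -1.54. Without both 216 h libraries, *T* was at 0.06 and *Mki67* -0.10. With quantile normalization, *Sox1* was at 0.09. With 1 library left out, *Sox1* ranged from -0.32 to 0.03 (above 0 without adherent 2.5 h), *Nes* from -0.00 (without adherent 0 h) to 0.35, *Dcx* from -0.64 to 0.21 (above 0 without SFEB 126 h, SFEB 144 h or adherent 216 h), *Stmn2* from -0.56 to 0.10 (above 0 without SFEB 126 h or adherent 216 h), *Otx2* from -0.01 (without adherent 8.5 h) to 0.67, *T* from -1.08 to 0.26 (above 0 without adherent 144 h) and *Mki67* from -0.21 to 1.04 (below 0 without adherent 2.5 h, 8.5 h or 216 h).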
